A study of Mus musculus with 69 samples.

Results

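The respiratory chain genes encoded in the nucleus were described here in RNA and chromatin of the nucleus accumbens, a striatal region of the brain rich in medium spiny neurons, from male mice. Members were taken by symbol: names beginning with Nduf, Uqcr, Cox4 to Cox8 or Atp5, and Sdha, Sdhb, Sdhc and Sdhd, without pseudogenes. This gave 97 of the 52636 genes in the counts table, of which 39 belong to complex I, 8 are its assembly factors, 4 belong to complex II, 8 to complex III, 21 to complex IV and 16 to complex V. Atp5s, an older name of a gene that is no subunit, was counted apart. A filter on low counts left 84 of the 97 for testing among 14016 genes. Of the 13 left out, 5 had 0 counts in all 32 libraries.

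The study concerns early life stress (ELS) and Dot1l, the enzyme that methylates lysine 79 of histone H3. RNA came from 4 groups of 8 libraries: Standard rearing with a GFP control (Standard GFP), ELS with GFP (ELS GFP), Standard rearing with Dot1l overexpression, and ELS with Dot1l knockdown. The labels give neither age, vector, promoter nor the cells infected, and do not say that libraries came from separate animals, so p-values measure the spread between these libraries. H3K79me2 (dimethylation of lysine 79) was deposited as 1 peak list per rearing group, with no vector, and the lists alone allow no test between them. The series also has 9 ChIP libraries per rearing group, with inputs, which were not analysed here.

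Electrons from NADH enter the chain at complex I and those from succinate at complex II, which is also an enzyme of the citric acid cycle. Complex III passes them to cytochrome c and complex IV to oxygen, and complex V (ATP synthase) uses the proton gradient built on the way to make ATP. Most subunits are encoded in the nucleus, a few in mitochondrial DNA, and neurons depend on the chain for much of their ATP. H3K79me2 lies over the early part of transcribed genes.

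In 4 members the highest-fold promoter peak began after the start, so outside the windows before the start that are printed here. They were chosen as the members with the highest-fold promoter peaks in both lists, and each is the 250 bases before the RefSeq start (GRCm38.p6), read 5′ to 3′ on the strand of the gene. Capitals mark matches to the motifs described with them. They are Cox6a1 (chr5:115348959-115349208, minus strand), Ndufb5 (chr3:32736813-32737062, plus strand), Ndufa9 (chr6:126849145-126849394, minus strand) and Ndufb6 (chr4:40279422-40279671, minus strand).
Cox6a1: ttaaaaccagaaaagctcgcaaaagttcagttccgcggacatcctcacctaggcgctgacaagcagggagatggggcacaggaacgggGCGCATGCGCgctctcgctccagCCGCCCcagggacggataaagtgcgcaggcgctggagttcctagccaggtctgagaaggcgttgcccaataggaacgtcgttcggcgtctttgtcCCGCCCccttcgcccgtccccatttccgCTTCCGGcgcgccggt
Ndufb5: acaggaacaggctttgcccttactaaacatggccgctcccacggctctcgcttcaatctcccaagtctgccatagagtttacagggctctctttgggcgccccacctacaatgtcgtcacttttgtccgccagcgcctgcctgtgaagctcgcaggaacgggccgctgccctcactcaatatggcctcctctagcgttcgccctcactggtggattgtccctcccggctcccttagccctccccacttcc
Ndufa9: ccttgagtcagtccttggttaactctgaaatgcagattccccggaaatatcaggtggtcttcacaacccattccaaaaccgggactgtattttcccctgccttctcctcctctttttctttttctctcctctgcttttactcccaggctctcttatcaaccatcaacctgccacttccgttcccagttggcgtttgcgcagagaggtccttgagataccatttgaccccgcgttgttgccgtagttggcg
Ndufb6: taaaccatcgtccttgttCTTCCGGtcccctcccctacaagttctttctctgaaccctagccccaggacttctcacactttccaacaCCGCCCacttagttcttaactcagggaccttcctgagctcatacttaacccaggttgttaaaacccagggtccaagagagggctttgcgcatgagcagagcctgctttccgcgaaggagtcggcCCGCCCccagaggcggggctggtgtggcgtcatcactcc
Cox6a1 encodes the widespread form of a complex IV subunit, and its window holds the NRF1 core GCGCATGC on both strands, overlapping in 1 run, with a GABPA match and a pair of Sp1 matches. Ndufb6, an accessory subunit of complex I, has 1 GABPA match and a pair of Sp1 matches. The printed 250 bases of Ndufb5 and Ndufa9, also accessory subunits of complex I, hold no match in these letters. In all 4 the peak lay inside the gene, after the start. At Cox6a1 it began 30 bases after the start in the Standard list (fold 2.91) and 47 bases after in the ELS list (fold 2.9). At Ndufb6 these distances were 112 and 87 bases (folds 3.25 and 2.78), at Ndufa9 202 and 189 bases (3.08 and 2.78) and at Ndufb5 376 and 332 bases (2.86 and 2.85). Folds are the authors' values, and peak coordinates are used as the lists give them.

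The motifs were searched on both strands in the RefSeq windows of 300 bases, 250 before and 50 after the start, of which 79 belong to 74 members. NRF1 (core GCGCATGC) and GABPA (CCGGAAG) are transcription factors known for driving many respiratory chain genes. The NRF1 core was present in 15.2% of members' windows (12 of 79) against 2.71% of all 32851 windows, and the GABPA letters in 22.8% (18 of 79) against 8.86%. YY1 (AAGATGG) stood in 13.9% against 6.34%, the ERR letters AAGGTCA in 10.1% against 4.72%, and Sp1 (GGGCGG) in 43.0% against 35.7%. Ndufa9 has 1 YY1 match, in the 50 bases after the start that are not printed above. The letters TATAAA of the core promoter element of that name stood in 10.1% against 13.6%. Windows with the NRF1 core belonged to Ndufa6, Ndufa8, Ndufa11, Ndufaf4, Ndufaf5, Sdhb, Uqcr11, Uqcrc1, Cox6a1, Atp5g2, Atp5k and Atp5l, so to complexes I to V. Members' windows also held more G and C, with a median of 57.7% against 52.7%. The shares describe letters and were not matched on base composition.

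Most members carried H3K79me2, and their nearest peak mostly began just after the start. In the Standard list 71 of the 97 had a peak, in the ELS list 70, and 69 had one in both. A promoter peak, whose middle is within 3 kb of a transcript start, was listed for 65 and 68, and for 63 in both. Of the 84 tested members, 81.0% (Standard list) and 79.8% (ELS list) had a peak, against 57.0% and 52.8% of all tested genes with a symbol. For promoter peaks these shares were 73.8% and 77.4% against 50.6% and 46.4%. All complexes were represented: in the Standard list 30 genes of complex I, 5 assembly factors, all 4 of complex II, 6 of complex III, 11 of complex IV and 15 of complex V.

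A larger share of the members' peaks lay near the start than over all protein-coding names. Of the 310 member peaks in the Standard list 49.0% were promoter peaks, against 18.9% over all protein-coding names, and of the 324 in the ELS list 50.9% against 18.8%. Counted by gene, the shares lay closer together. Of the members with a peak in the Standard list 91.5% had a promoter peak, against 88.8% of all protein-coding names. In the ELS list these shares were 97.1% and 88.1%. The members are short, with a median gene span of 8370 bases against 30400 in the Standard list, and the shares were not matched on span. In the Standard list 59 members had a peak and a RefSeq window. The peak nearest to the start began after it in 54 (91.5%, against 80.6% of 6755 gene names). It began within 500 bases after the start in 48 (81.4%, against 42.1%). The start itself lay inside a peak in 0 of 59, against 8.62% of all names. In the ELS list the nearest peak began within 500 bases after the start in 44 of 59 (74.6% against 37.5%) and again covered the start of 0. The exceptions, with the nearest peak before the start in both lists, were Atp5j, Ndufaf5, Ndufaf7 and Ndufs3, named after their values were seen.

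**Figure D1:**
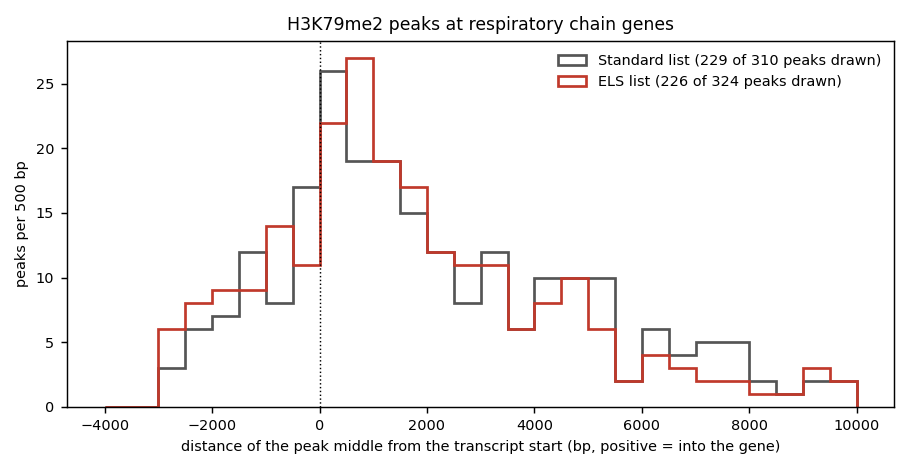
Distance in bp from the transcript start to the middle of each member peak, as peaks per 500 bp, in the Standard list (grey) and the ELS list (red); 229 of 310 and 226 of 324 peaks lie in the range drawn. Both lists are highest just inside the gene, with 64 and 68 peaks between the start and 1500 bp into it.

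The highest folds of members in the Standard list stood at Atp5c1 (3.39, gamma subunit of the ATP synthase), Ndufab1 (3.27, the mitochondrial acyl carrier protein of complex I), Ndufb6 (3.25), Ndufv2 (3.2, an iron-sulfur subunit of complex I) and Atp5o (3.17, a stalk subunit of the ATP synthase), though that peak lies far outside the RefSeq gene, where the highest fold was 2.57. In the ELS list they stood at Cox6a1 (2.9), Ndufb5 and Cox7a2l (both 2.85; Cox7a2l takes part in supercomplexes) and Atp5l (2.8), followed by Ndufa9, Ndufb6, Ndufv2 and Atp5o, all at 2.78. The median fold of member peaks was 2.05 (Standard list) and 1.96 (ELS list), against 1.96 and 1.92 over all protein-coding names. Peaks of Atp5o need care: the lists assign 35 and 40 peaks over a span of 247289 bases, while the RefSeq gene is 6408 bases long and only 1 and 2 of them lie within 1 kb of it. Over all members with a RefSeq entry 84.7% and 83.6% of peaks lay within 1 kb of the RefSeq gene. In addition, 36.1% and 40.7% of member peaks were also listed under another gene's name.

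Between the lists, the members followed the lists as a whole in length under peaks, but not in the number of peaks. Length under peaks was shorter in the ELS list for 64 of the 69 members in both (92.8%), and for 94.1% of 8054 protein-coding names. The median ratio of ELS over Standard length was 0.76 for members and 0.736 for all names. The Standard list holds more peaks (117819 against 106374), and its median fold over all peaks was 1.96 against 1.92. The highest fold of a member was larger in the Standard list for 66 of 69. That count was not made for other genes, so it is not read as particular to the members. The members with more length in the ELS list were Atp5c1 (12228 to 16487 bases), Cox4i1 (537 to 3145), Ndufa10 (3048 to 3850), Ndufa3 (650 to 675) and Ndufaf6 (266 to 273), named after their values were seen. For Atp5c1 and Cox4i1 this includes an upstream ELS peak of 4910 and 2448 bases that overlaps a Standard peak listed under other genes only. Without it the ELS lengths were 11577 and 697 bases. Of the members' peaks 71.9% (Standard list) and 90.1% (ELS list) overlapped a peak of the other list by at least 1 base, against 63.1% and 90.9% over all protein-coding names.

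**Figure D2:**
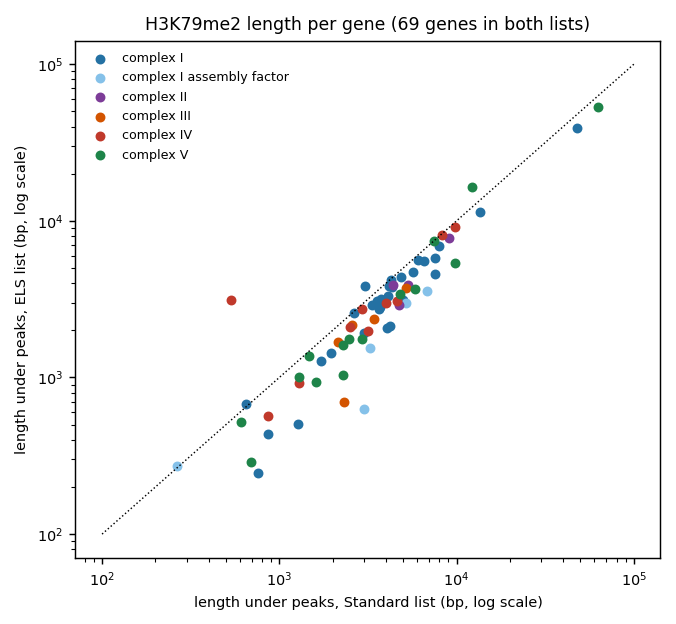
Summed length under H3K79me2 peaks per member, in bp on log axes, in the Standard list (x) and the ELS list (y), with 1 point per gene for the 69 members in both lists, coloured by complex; the dotted line marks equal length. Of these, 64 lie below the line, and Cox4i1, at 537 and 3145 bp, lies farthest above it, of which 2448 bp are an ELS peak that overlaps a Standard peak listed under other genes.

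Of the members, 2 had a promoter peak in the Standard list alone and 5 in the ELS list alone. That count was not made over all names, so it is not read as particular to the members. Cox7c (a small complex IV subunit, fold 1.84) and Uqcrb (a complex III subunit, 1.88) had their only peak in the Standard list. Ndufs8, an iron-sulfur subunit of complex I, had its only peak in the ELS list (2.04). Atp5l (2.8), Ndufv2 (2.78), Atp5c1 (2.4) and Ndufa3 (1.76, named after its value was seen) had peaks in both lists but a promoter peak only in the ELS list. That class is set by the middle of a peak, so a long peak that begins near the start can fall outside it. At Atp5l the nearest peak began 84 bases (Standard list) and 56 bases (ELS list) after the start. At Ndufv2 it began 207 and 228 bases after, and at Ndufa3 3193 and 1906 bases after. At Atp5c1 the ELS promoter peak (4910 bases, upstream of the gene) overlapped a Standard peak listed under another gene, Kin, so the difference lies in the naming of that peak.

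Another 25 members had no peak under their names in either list, 9 of them with at most 100 counts in all libraries. Their median RNA level was 1.56 CPM (counts per M library counts, M being 1e6), against 10.4 CPM for the 63 with promoter peaks in both lists, on a scale not corrected for length. Tissue-restricted isoforms were among them: Cox6a2, Cox7a1 and Cox8b of striated muscle, Cox4i2, Cox6b2, Cox7b2 and Cox8c. The 3 members on chromosome X, Ndufa1, Ndufb11 and Cox7b, were there too, but the lists hold few peaks on X: 110 of 117819 in Standard (0.0934%) and 15 of 106374 in ELS (0.0141%). Of 450 tested X-linked genes 7.56% and 2.22% had a peak, against 59.9% and 55.6% of 12948 autosomal ones, so no statement is made for these 3. Ndufv1 (17.3 CPM, the NADH-binding subunit), Uqcrq (12.1), Ndufs5 (6.35), Ndufaf4 (6.16), Atp5mpl (4.68) and Uqcrc1 (4.27), all autosomal, had RNA but no peak under their names. They were named after their values were seen. Ndufc1 (3.57 CPM) had no peak under its name either. Peaks were assigned by the gene names in the lists alone, so a peak listed only under another gene's name was not counted.

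A few members were all but missing from the counts. Cox4i1, the widespread form of complex IV subunit 4, and Ndufa13, a complex I subunit, are used by every cell with mitochondria but were listed at 0 in all 32 libraries, and Ndufs3, a core complex I subunit, held 19 counts in all. Each had promoter peaks in both lists, with top folds of 2.42 and 2.62 for Cox4i1, 2.62 and 2.25 for Ndufa13 and 2.67 and 2.27 for Ndufs3. The ELS peaks of Cox4i1 include the upstream peak of 2448 bases that overlaps a Standard peak listed under other genes only. No statement on the expression of Cox4i1, Ndufa13 and Ndufs3 is made. The sources used here do not say how reads shared by overlapping genes were counted. Cox6a2, Ndufs6b and Ndufb4c were also listed at 0, with no peak. Ndufa4l2 (21 counts), Cox7a1 (31), Ndufa11b (40), Cox6b2 (58), Cox8b (8), Cox8c (1) and Cox4i2 (124) were too low to test.

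Libraries held 0.314 to 11.1 M counts, with 3 Standard GFP libraries and 1 knockdown library under 1 M. Members took 0.0727% to 0.181% of the counts of a library. Levels are given as CPM on library sizes scaled by TMM (trimmed mean of M-values). Standard GFP replicate 6 and Dot1l overexpression replicate 1 had the scaling factors 0.565 and 0.53. Medium spiny neuron markers (8 of 8 detected) summed to 424 to 2670 CPM per library, while markers of striated muscle stayed at or under 4.92 CPM. Dot1l itself did not separate the groups: its medians were 36.3 CPM in Standard GFP, 37.7 with overexpression, 35 in ELS GFP and 38.4 with knockdown. Its log2 fold change was 0.33 (SE 0.27, edgeR adjusted p = 0.741) for overexpression and 0.28 (SE 0.27, adjusted p = 0.985) for knockdown. The second goes against the label, so the group is called labelled knockdown below. In bulk tissue, fewer cells of a type and less RNA per cell cannot be told apart.

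The libraries that stood apart mostly shared a number in their titles. Titles join a letter with a number from 1 to 4, whose meaning the labels do not give. Number 2 is carried by 8 of the 32 libraries: 3 of Standard GFP (replicates 4, 5 and 6), 1 of ELS GFP (replicate 2), 2 of overexpression (replicates 1 and 2) and 2 of the labelled knockdown (replicates 6 and 7). They held 0.314 to 6.8 M counts with a median of 2.12 M, against medians of 5.14 to 7.34 M for the other numbers, and 3 of the 4 libraries under 1 M counts. Of 42 values of members or complexes in which a single library stood apart from its group, 32 were in these 8. Without them, members at an unadjusted p under 0.05 numbered 3 for ELS, 1 for overexpression and 5 for the labelled knockdown. With them the numbers were 9, 11 and 7. The share of all genes at that level was not counted for this setting, and fewer libraries remain per group. These numbers are therefore not read as a result about the members. In this setting 0 members passed the adjusted threshold in edgeR (0% of 15121 genes). The members' median log2 fold change was then 0.06, 0.02 and 0.04, so that for the labelled knockdown its sign differed. With the title number as a factor 0 members passed as well.

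Summed over the members, the group means differed by less than the SD between libraries. The sum was 1200 ± 241 CPM in Standard GFP, 1230 ± 318 in ELS GFP, 1200 ± 171 with overexpression and 1150 ± 125 in the labelled knockdown (SD, n = 8 each). Complex V gave 389 ± 80.8, 411 ± 97.5, 396 ± 54 and 382 ± 58.8 CPM, and complex I 425 ± 125, 401 ± 92.5, 403 ± 98.1 and 394 ± 72.4. Complex III differed most between groups, at 65.1 ± 11.4 CPM in Standard GFP, 93.2 ± 39.8 in ELS GFP, 66.2 ± 13.4 with overexpression and 67.7 ± 20 in the labelled knockdown. Its ELS GFP libraries ran from 57.8 to 184 CPM (median 85.2) and overlapped those of Standard GFP, which ran from 47.6 to 86.1 (median 65.9). The highest, replicate 2, was also the highest of its group in complexes I, II, IV and V.

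**Figure D3:**
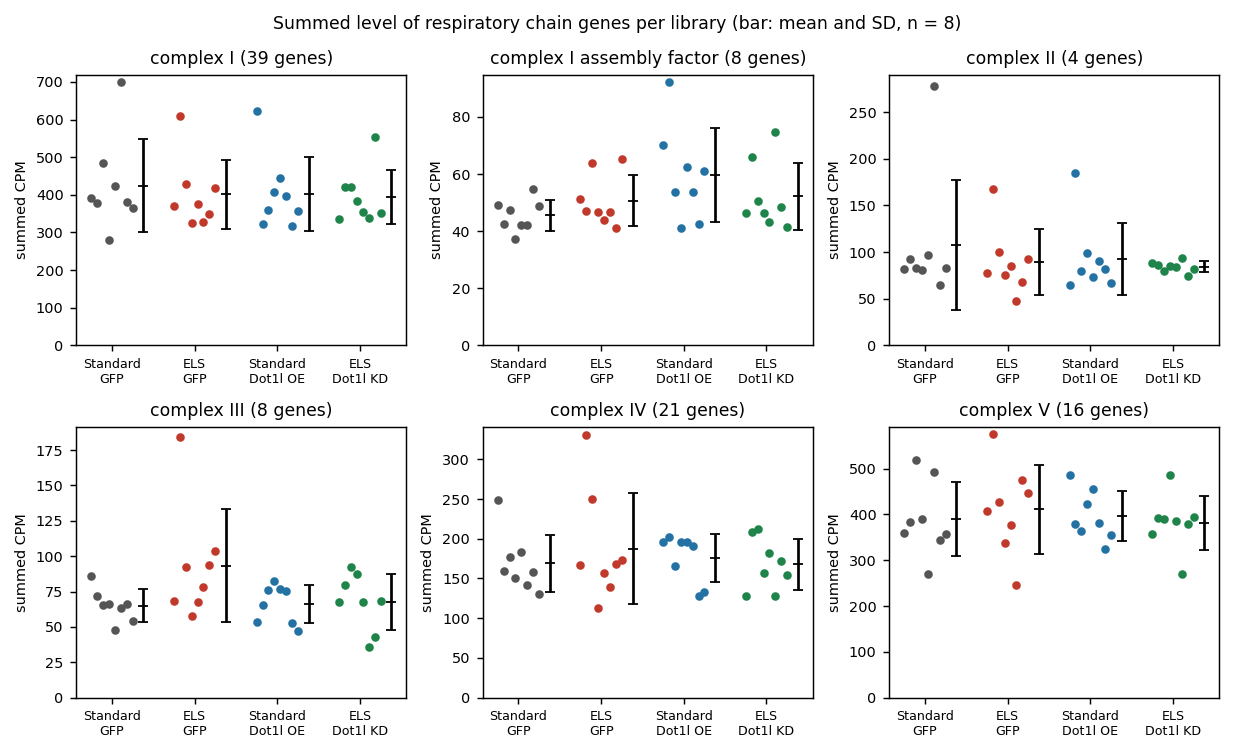
Summed CPM of the members of each complex in each of the 32 libraries, 1 point per library, with the mean and SD of each group of 8 beside the points (OE, overexpression; KD, labelled knockdown). All groups overlap in every panel, and single libraries stand high, such as ELS GFP replicate 2 at 184 CPM in complex III and Standard GFP replicate 6 at 278 CPM in complex II.

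In no contrast did a member pass the threshold, an adjusted p at or below 0.05 over all 14016 genes in edgeR's quasi-likelihood test. This was 0 of 84 members in each, as it was 0% of all genes. Limma voom with quality weights called 0 members and 0 genes too. DESeq2 called 0 members, with 0.606% of all genes called for ELS, 0.293% for overexpression and 0.0143% for the labelled knockdown. Without the libraries under 1 M counts edgeR called 1 member for ELS, Ndufab1 (0.0462% of genes), and 0 for overexpression (0.119%) and the labelled knockdown (0%). The ELS and overexpression contrasts share the Standard GFP libraries, and the ELS and labelled knockdown contrasts share the ELS GFP libraries, so they are not independent and are given side by side only.

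For ELS GFP against Standard GFP, 9 of the 84 members had an unadjusted p under 0.05 (10.7%), near the 11.7% of all genes. Of these 5 were higher (all genes, 4%) and 4 lower (7.73%). The median log2 fold change of the members was 0.112, against -0.013 over all genes tested, with 49 higher and 35 lower. By complex it was 0.035 in I, 0.186 in the assembly factors, 0.137 in II, 0.399 in III, 0.08 in IV and 0.01 in V. In complex III 7 of 8 members were higher. In the same contrast, 7 of 8 medium spiny neuron markers tested had lower values (4 at an unadjusted p under 0.05). So did 5 of 5 of astrocytes (3), 6 of 6 of oligodendrocytes (1) and 5 of 5 of microglia (1). For neurons (1) and parvalbumin interneurons (0) 3 of 5 each were lower, and 3 of 4 for pericytes and smooth muscle (0). Higher values were found for 4 of 5 of endothelium (1) and 2 of 3 of erythrocytes (0). Of all these markers 0 passed the adjusted threshold. The summed medium spiny neuron markers ran from 505 to 2560 CPM (median 1160) in Standard GFP and from 525 to 1970 (median 653) in ELS GFP. Their part in the members' values was not tested.

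Ndufab1 had the smallest p. Its Standard GFP libraries held 1.61 to 356 CPM with a median of 8.12, and its ELS GFP libraries 2.38 to 7.34 with a median of 5.62. All 8 ELS GFP libraries were below the Standard GFP median, as for 2.4% of all genes, but the ranges overlap, and replicate 6 alone held 88.2% of the Standard GFP level. The log2 fold change was -3.3 (SE 0.96, edgeR adjusted p = 0.127), and -0.36 without that replicate. Without the libraries under 1 M counts, which keeps replicate 6, it was -3.81 with an adjusted p of 0.0482 in edgeR.

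Cox7c behaved likewise in the other direction. Standard GFP libraries held 0 to 9.04 CPM (median 3.21) and ELS GFP libraries 1.02 to 178 (median 4.38). A single library, ELS GFP replicate 2, held 86.1% of the group's level. The log2 fold change of 2.59 (SE 0.78, edgeR adjusted p = 0.137) was -0.01 without it. The same library held 67.3% of the ELS GFP level of Ndufb8 (1.39, and 0.01 without it) and 52.2% of that of Uqcrh, the hinge protein of complex III (1.13, and 0.29 without it).

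Ndufc1 and Atp5g3 differed over most libraries. Ndufc1, a small complex I subunit, held 0 to 2.55 CPM (median 1.87) in Standard GFP and 1.64 to 7.75 (median 3.96) in ELS GFP, with 7 of 8 ELS GFP libraries above the Standard GFP median. Its log2 fold change was 1.3 (SE 0.48, edgeR adjusted p = 0.234). Atp5g3 encodes 1 of the 3 copies of the c-ring subunit of the ATP synthase. It held 3.42 to 12.3 CPM (median 6.05) in Standard GFP and 2.86 to 22.6 (median 11.5) in ELS GFP, again with 7 of 8 above. The log2 fold change was 0.9 with an SE of 0.39 (edgeR adjusted p = 0.335). Both genes overlap between the groups. They were named for a small p, and the share of all genes with 7 of 8 libraries above was not counted. Another 6 of the 84 members (7.14%, all genes 3.9%) had all 8 ELS GFP libraries above the Standard GFP median: Ndufa1, Ndufa11, Ndufs8, Uqcr10, Atp5g2 and Atp5j2, named after their values were seen. For Uqcr10 the medians were 3.82 and 7.81 CPM (log2 fold change 0.7, SE 0.46, adjusted p = 0.605).

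Lower values after ELS rested on single Standard GFP libraries in several members. Sdha, the flavoprotein of complex II, held 42.2 to 251 CPM (median 52.9) in Standard GFP and 30.9 to 58.3 (median 48.5) in ELS GFP. Its log2 fold change of -0.7 (SE 0.31, edgeR adjusted p = 0.351) was -0.12 without Standard GFP replicate 6. For Ndufv3 (-0.98, adjusted p = 0.318) replicate 5 gave 52.5% of the Standard GFP level, and the value was at -0.15 without the libraries under 1 M counts. Ndufs7, which carries an iron-sulfur cluster of complex I, was at -0.94 (SE 0.32, adjusted p = 0.18), and at -0.66 without replicate 6. Atp5f1 (-0.63, adjusted p = 0.462) turned to 0.07 without that replicate.

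**Figure D4:**
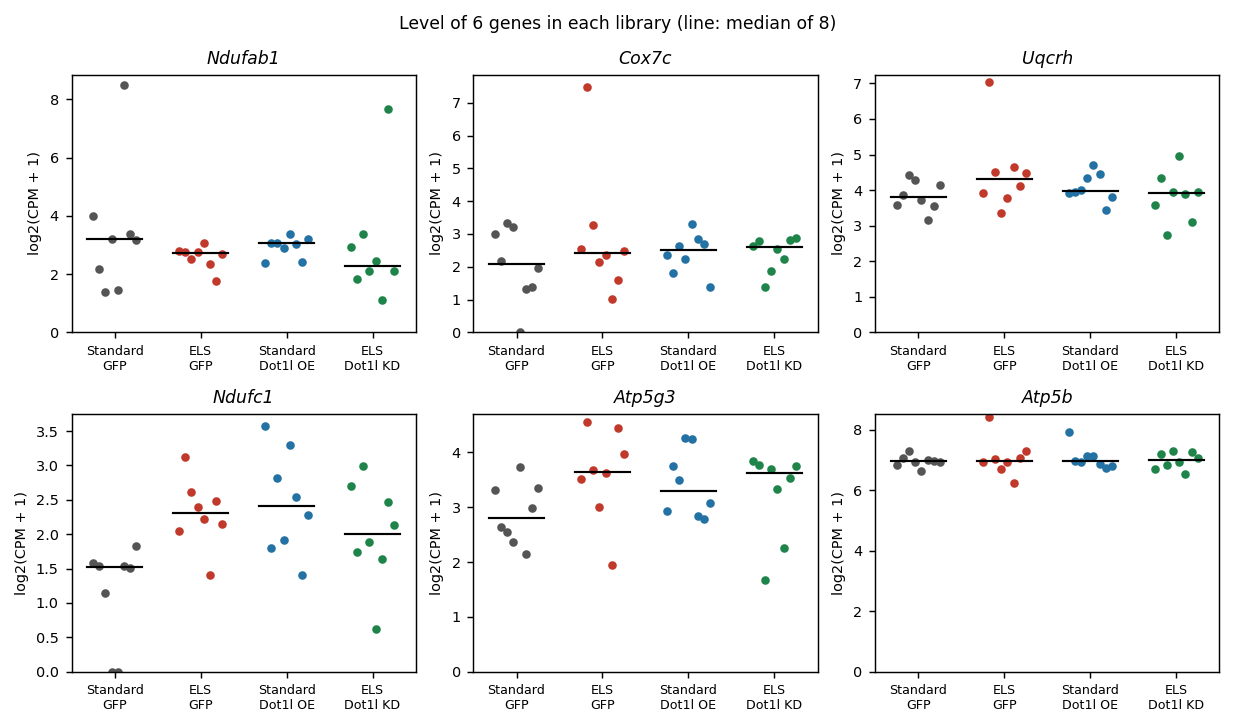
Level of 6 members in each library as log2(CPM + 1), 1 point per library and a line at the median of each group of 8. Single libraries stand far above their group for Ndufab1 (356 and 204 CPM) and Cox7c (178 CPM), while the medians of Atp5b lie between 122 and 127 CPM in all groups.

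For Standard Dot1l overexpression against Standard GFP, 11 of 84 members had an unadjusted p under 0.05 (13.1%, all genes 10.9%): 7 were higher (all genes 4.59%) and 4 lower (6.28%). The members' median was 0.098 against 0.018 over all genes. Of the cell type markers tested, 7 of 8 of medium spiny neurons (1 at an unadjusted p under 0.05) and 6 of 6 of oligodendrocytes (2) had lower values. So did 4 of 5 each of astrocytes (0) and parvalbumin interneurons (0), and 3 of 5 of neurons (1). Erythrocytes had 2 of 3 higher (0), and endothelium 2 higher (1) and 3 lower (0). The part of these markers in the members' values was not tested. The assembly factors of complex I, which build the enzyme and are no part of it, had a median of 0.507 with 6 of 8 higher and 1 at an unadjusted p under 0.05. Complex V had 11 of 16 higher (median 0.116), and complexes I, II and IV medians of 0.025, 0.029 and 0.025. Complex III stood at 0.194 with 5 of 8 higher.

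Ndufc1 had the smallest p in this contrast. Its overexpression libraries held 1.66 to 10.9 CPM with a median of 4.34, 7 of 8 above the Standard GFP median of 1.87 that both contrasts use. The log2 fold change was 1.61 (SE 0.49, edgeR adjusted p = 0.17). Cox5b, a complex IV subunit encoded in the nucleus, held 19 to 35.8 CPM (median 25.2) in Standard GFP and 20.8 to 69.6 (median 42.8) with overexpression. For it, too, 7 of 8 libraries were above, the groups overlap, and the log2 fold change was 0.69 (SE 0.25, adjusted p = 0.25). Ndufaf5, an assembly factor, had medians of 10.6 and 14.5 CPM with 7 of 8 above (0.85, SE 0.32, adjusted p = 0.279). Without the libraries of title number 2 the values were 1.27 for Ndufc1, 0.33 for Cox5b and 0.21 for Ndufaf5. For how many of all genes 7 of 8 libraries lay above was not counted in this contrast either.

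Other members of this contrast followed single libraries. Overexpression replicate 1 held 66.3% of the group's level of Ndufa2 (log2 fold change 1.75, SE 0.63, edgeR adjusted p = 0.262) and 73.5% of that of Ndufb4 (1.9, SE 0.7, adjusted p = 0.263). Differences of the group medians were 0.41 and 0.27 on the log2 scale. On the lower side stood Ndufab1 (-2.91, 0.03 without Standard GFP replicate 6), Atp5f1 (-0.93, -0.22 without it), Ndufs7 (-0.76, -0.47 without it) and Ndufv3 (-0.79, 0.03 without the libraries under 1 M counts). Cox5a, a complex IV subunit, held 0 to 35.2 CPM (median 5.56) in Standard GFP and 1.65 to 4.25 (median 3.36) with overexpression. All 8 of the latter lay below the Standard GFP median (all genes 1.73%), inside its range, and the log2 fold change was -1.26 (SE 0.58, adjusted p = 0.402), or -0.72 without the libraries under 1 M counts. All 8 lay above that median for Ndufs8, Ndufaf3, Uqcrfs1 and Atp5s, named after their values were seen (4.76% of members, all genes 3.47%). Uqcrfs1, the Rieske iron-sulfur protein of complex III, had medians of 4.05 and 8.4 CPM (log2 fold change 0.63, SE 0.41, adjusted p = 0.641).

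For the labelled ELS Dot1l knockdown against ELS GFP, 7 of 84 members had an unadjusted p under 0.05 (8.33%, all genes 6.18%): 1 was higher (all genes 2.23%) and 6 lower (3.95%). The members' median was -0.036 against 0.002 over all genes. Here 5 of 5 microglial, 6 of 8 medium spiny neuron and 4 of 5 parvalbumin interneuron markers had higher values. Lower values were found for 5 of 5 endothelial, 4 of 5 neuron and 3 of 4 pericyte and smooth muscle markers. Astrocytes had 3 higher and 2 lower, and oligodendrocytes 3 and 3. These lists held 0 at an unadjusted p under 0.05, and their part was not tested either. With all libraries, complex III had 6 of 8 lower with a median of -0.263, beside -0.043 in complex I, 0.1 in its assembly factors, -0.117 in II, 0.063 in IV and -0.025 in V. The ELS GFP libraries that stood high in complex III enter this contrast too.

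**Figure D5:**
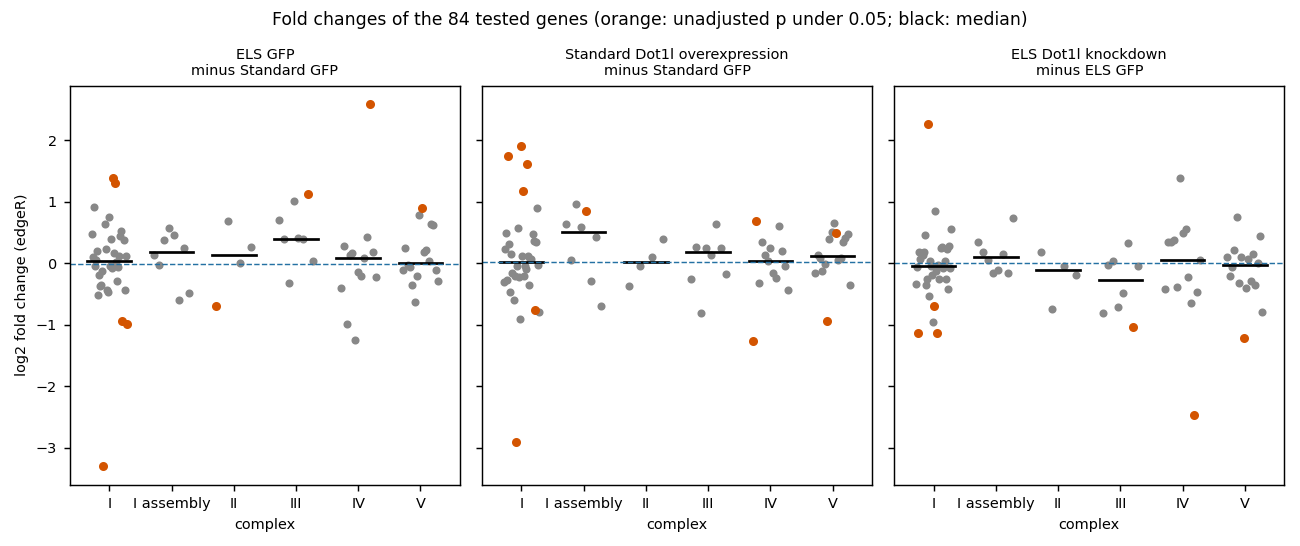
Log2 fold change (edgeR) of each tested member by complex in the 3 contrasts; black lines are medians, orange points have an unadjusted p under 0.05, and the dashed line is the median of all 14016 genes; Atp5s is not drawn. Complex III lies highest for ELS (median 0.399) and lowest for the labelled knockdown (-0.263), and 0 points pass the adjusted threshold.

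Cox7c had the smallest p in this contrast. The labelled knockdown libraries held 1.61 to 6.27 CPM with a median of 5.05, above the ELS GFP median of 4.38, and the groups overlap. The fitted log2 fold change of -2.46 (SE 0.74, edgeR adjusted p = 0.335) was 0.12 without ELS GFP replicate 2. Uqcrh (-1.04, SE 0.4, adjusted p = 0.602) was at -0.2 without that library, and Ndufb8 (-1.13, adjusted p = 0.713) at 0.24. Ndufab1 was higher (2.26, adjusted p = 0.677), with 86.8% of the group's level in labelled knockdown replicate 7, and at -0.22 without it.

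In 0 members did all 8 labelled knockdown libraries lie above (all genes 0.856%) or below (1.24%) the ELS GFP median. Atp5g2, Ndufa11 and Ndufb5 had 7 of 8 below it. The share of all genes with 7 of 8 below was not counted, so this is not read as particular to the members. Atp5g2, another copy of the c-ring gene, held 2.57 to 9.04 CPM (median 4.57) in ELS GFP and 0 to 5.52 (median 1.64) in the labelled knockdown, with 7 of 8 below the ELS GFP median. Its log2 fold change was -1.21 (SE 0.51, edgeR adjusted p = 0.677). Ndufa11, a complex I subunit, held 4.52 to 19.2 CPM (median 6.16) and 0.269 to 7.23 (median 4.44), with 7 of 8 below (-1.14, SE 0.48, adjusted p = 0.678). Ndufb5, named after its values were seen, likewise had medians of 8.02 and 5.08 CPM with 7 of 8 below (-0.69, SE 0.32, adjusted p = 0.768). On the higher side stood, with unadjusted p over 0.05, Cox7a2l (0.56), Ndufb6 (0.85), Cox5b (0.34) and Cox6c2 (1.38).

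Several subunits central to the chain had much the same median in all 4 groups. Atp5b, the catalytic beta subunit of the ATP synthase, averaged 124 ± 15.9 CPM in Standard GFP, 146 ± 81.2 in ELS GFP, 137 ± 43.8 with overexpression and 127 ± 23.6 in the labelled knockdown. Its group medians were 123, 124, 122 and 127 CPM. Atp5a1, the alpha subunit, averaged 86 ± 32.6, 80.2 ± 16, 78.1 ± 15.5 and 86.3 ± 17 CPM (all SD, n = 8). For Ndufs4, an accessory subunit next to the NADH-oxidizing module, the group medians were 36.3, 36.9, 33.4 and 35.8 CPM. In none of these 3 genes did groups separate, and log2 fold changes lay between -0.21 and 0.24 over the 3 contrasts.

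Other core subunits were less even. Ndufs1, which carries iron-sulfur clusters of complex I, had medians of 17.3, 15.6, 13.9 and 17.3 CPM, and Ndufv1 of 13.5, 11.9, 15.7 and 13.7 CPM. For Ndufv1, 55.3% of the overexpression level came from replicate 1. In complex II the medians, again in the order Standard GFP, ELS GFP, overexpression and labelled knockdown, were 12, 14.7, 13.9 and 13.4 CPM for Sdhb, the iron-sulfur subunit, 9.53, 9.29, 11.2 and 9.68 for the membrane anchor Sdhc, and 5.96, 6.36, 7.54 and 4.59 for its partner Sdhd. In complex III, Uqcrc1, a core protein, had 2.55, 4.95, 3.97 and 3.01 CPM, and for ELS its log2 fold change was 1.01, with an SE of 0.5 (edgeR adjusted p = 0.426). Atp5o had 2.24, 2.38, 2.57 and 1.48 CPM. Over the 14 subunits fixed as catalytic or defining, log2 fold changes ran from -0.7 (Sdha) to 1.01 (Uqcrc1) for ELS, from -1.26 (Cox5a) to 0.9 (Ndufv1) for overexpression and from -0.79 (Atp5o) to 0.33 (Uqcrfs1) for the labelled knockdown.

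Several subunits of complex IV have isoforms, and for the pairs fixed for description the counts of both forms were as follows. Cox6a1 had medians of 8.64, 10.9, 14 and 14.9 CPM beside Cox6a2, listed at 0 as Cox4i1 was and therefore not read, and 70% of its Standard GFP level came from replicate 1. Cox7a2 had 3.67, 4.53, 4.68 and 4.72 CPM beside medians of Cox7a1 up to 0.204. Cox8a had 29.4, 34.6, 27 and 23.7 CPM beside Cox8b at 0 in every median, and Cox6b1 8.07, 9.96, 11.5 and 10.5 beside Cox6b2 up to 0.241. Ndufa4 had 7.02, 4.9, 6.2 and 7.05 CPM beside Ndufa4l2 up to 0.143, and Cox7a2l had 9.96, 8.84, 9.24 and 12.5. Outside the fixed pairs, Cox7b2 had medians of 1.45, 1.8, 2.18 and 1.35 CPM; it was named after its values were seen. For subunit 4, Cox4i2 had medians of 0.219, 0.0966, 1.15 and 0.578 CPM. The c-ring is the exception, with all 3 copies counted: Atp5g1 had 2.86, 2.54, 2.53 and 2.41 CPM, Atp5g2 2.35, 4.57, 3.16 and 1.64, and Atp5g3 6.05, 11.5, 8.89 and 11.3. Reads could be split among the c-ring copies by the authors' counting, so their separate levels are uncertain.

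Genes that work with the chain gave 0 calls at the adjusted threshold in edgeR as well. The 13 mitochondrially encoded mRNAs had median log2 fold changes of -0.03 for ELS (3 higher, 10 lower), 0.2 for overexpression (13 higher) and -0.02 for the labelled knockdown (5 higher, 8 lower), with 0 at an unadjusted p under 0.05. The 12 citric acid cycle enzymes split into 6 higher and 6 lower in every contrast. Among 12 transcriptional regulators of the chain 5 were lower at an unadjusted p under 0.05 for ELS (all genes 7.73%), with a median of 0.01 over the list. They were Esrra, Pprc1, Polrmt, Gabpb1 and Ppargc1a, named after their values were seen. Their Standard GFP libraries were uneven: Esrra stood at 26.2 ± 42.6 CPM, Pprc1 at 25.8 ± 35.4 and Ppargc1a at 77.9 ± 107 (SD, n = 8). For overexpression 2 were lower (all genes 6.28%) and for the labelled knockdown 0 (3.95%). Of 23 tested assembly factors of complexes II to V, 0 were higher and 2 lower at that level for ELS (all genes 4% and 7.73%), 1 and 2 for overexpression (4.59% and 6.28%), and 0 and 2 for the labelled knockdown (2.23% and 3.95%).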

How the data were processed

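RNA and H3K79me2 chromatin of male mouse nucleus accumbens were measured. The authors deposited raw counts per Ensembl gene for 32 RNA libraries, and 1 peak list per rearing group with a fold enrichment (a ratio), a q-value and the distance to a transcript start per the file headers. The submitters' processing notes name FastQC, HISAT2, featureCounts, DESeq2 and mm10, without versions; the deposited table speaks of HTSeq, so the counter is not settled. The sources used here give neither strand, peak caller nor whether a list pools libraries; reads of overlapping or antisense genes therefore cannot be told apart. Per-library ChIP and input data were not analysed here. All count columns were mapped (0 left over), and 52403 of 52636 genes matched a symbol.

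The test was that of edgeR 4.0.16 in R 4.3.3, with TMM, filterByExpr, robust quasi-likelihood, 1 fit over 32 libraries with 28 residual degrees of freedom, and Benjamini-Hochberg adjustment over 14016 genes at 0.05. The SE of a fold change is |log2 fold change| divided by the root of the quasi-likelihood F. The fit was tested on simulated data for the ELS contrast, with 200 genes changed 4-fold. It recovered 84.5% of them and called 3 unchanged genes. The changed genes were not drawn from the lowest levels, and libraries that stand apart in single genes were not modelled. The simulation therefore does not show how the fit handles such libraries. Alternatives used DESeq2 1.42.0 and limma 3.58.1. Peaks were compared with bedtools 2.31.1. Promoter windows, gene spans and chromosomes came from RefSeq (GRCm38.p6), and other steps used Python 3.11.15 and pandas 2.3.3. Replicate numbers follow accession order and pair nothing. Exon lengths were not used, so levels of different genes set side by side are not corrected for length.

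Members, gene lists and tests were chosen with earlier results of these data known. Named genes are the 5 members with the smallest p per direction and contrast, isoform groups, the 14 catalytic or defining subunits, the 5 highest-fold peaks per list, members with a promoter peak in 1 list, and 4 promoters; others are marked. Values of 1 named gene are not reported here.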

Additional observations from a re-analysis of the deposited data

Results flagged for a closer look

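Single libraries stood apart from the other 7 of their group in 42 of 180 groups of 8 examined (38 named members and the sums over complexes). The gap to the next library, as a share of the group's range, was over Dixon's critical value for 8 samples. That value assumes normally distributed values, which CPM need not be. The members include those with the smallest p, and the sums reuse the same genes. The count is therefore a description, and no chance rate is set beside it. ELS GFP replicate 2 was the highest of its group with 339 CPM for Atp5b (next 155), 178 CPM for Cox7c (next 8.64), 22 CPM for Ndufb4 (next 8.02), 183 CPM for Ndufb8 (next 22.2), 98.2 CPM for Sdhb (next 25), 23.9 CPM for Sdhc (next 11.6), 130 CPM for Uqcrh (next 23.9), 1910 CPM for the sum of all members (next 1360), 610 CPM for the sum of complex I (next 429), 168 CPM for the sum of complex II (next 100) and 184 CPM for the sum of complex III (next 104). Dot1l overexpression replicate 1 was the highest of its group with 240 CPM for Atp5b (next 140), 38.1 CPM for Cox6a1 (next 18.1), 69.9 CPM for Ndufa2 (next 10.5), 81 CPM for Ndufb4 (next 5.67), 128 CPM for Ndufv1 (next 21.4) and 621 CPM for the sum of complex I (next 445). Standard GFP replicate 6 was the highest of its group with 171 CPM for Atp5f1 (next 41.8), 9.12 CPM for Atp5o (next 3.55), 356 CPM for Ndufab1 (next 15), 251 CPM for Sdha (next 64.1) and 278 CPM for the sum of complex II (next 96.9). Standard GFP replicate 5 was the highest of its group with 35.2 CPM for Cox5a (next 9.09), 44 CPM for Ndufs1 (next 22.7), 100 CPM for Ndufv3 (next 19) and 37 CPM for Sdhb (next 19.9). Dot1l overexpression replicate 2 was the highest of its group with 52.1 CPM for Ndufaf5 (next 18.9), 158 CPM for Sdha (next 62.2) and 184 CPM for the sum of complex II (next 99). ELS GFP replicate 6 was the lowest with 43.6 CPM for Atp5a1 (next 71.6) and 1.02 CPM for Sdhd (next 5.06). Dot1l overexpression replicate 5 was the highest of its group with 9.9 CPM for Atp5g1 (next 5.06) and 52 CPM for Ndufs4 (next 37.4). Standard GFP replicate 1 was the highest of its group with 116 CPM for Cox6a1 (next 12.9) and 248 CPM for the sum of complex IV (next 183). Labelled knockdown replicate 7 was the highest of its group with 204 CPM for Ndufab1 (next 9.45) and 553 CPM for the sum of complex I (next 420). Standard GFP replicate 3 was the highest of its group with 158 CPM for Atp5a1 (next 99.3). Standard GFP replicate 4 was the highest of its group with 8.28 CPM for Atp5g1 (next 3.81). Labelled knockdown replicate 3 was the highest of its group with 29.3 CPM for Cox7a2l (next 17.8). ELS GFP replicate 7 was the highest of its group with 19.2 CPM for Ndufa11 (next 9.82). ELS GFP replicate 8 was the highest of its group with 21.4 CPM for Ndufs1 (next 17). Of the 42 values, 32 were in the 8 libraries whose titles carry the number 2, and 3, 1 and 6 in those of the numbers 1, 3 and 4. What the number stands for is not given in the labels, and why these libraries stood apart was not tested.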

How the results depend on the processing

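No paired analysis was possible because the labels give RNA libraries no replicate numbers that pair groups; the title number (1 to 4) is unevenly spread over groups. The count of members past the threshold stayed at 0 in every contrast and alternative with a test, except 1 for ELS without the libraries under 1 M counts. The members' median log2 fold change ran from 0.03 to 0.18 for ELS, 0.02 to 0.22 for overexpression and -0.09 to 0.04 for the labelled knockdown. Counts at an unadjusted p under 0.05 moved from 9, 11 and 7 (ELS, overexpression, labelled knockdown) to 3, 1 and 3 with limma voom, to 7 for overexpression without Standard GFP replicate 6 and with the title number as a factor, to 3 for the labelled knockdown without ELS GFP replicate 2, and to 2 for ELS and 3 for the labelled knockdown without 3 libraries together (Standard GFP replicate 6, ELS GFP replicate 2, labelled knockdown replicate 7). Without the 8 libraries of title number 2 they were 3 for ELS and 1 for overexpression. The shares of all genes at that level were not counted for these alternatives. Settings leaving out ELS GFP replicate 2, labelled knockdown replicate 7, all 3 or these 8 were chosen after seeing the data. No setting changed a member count of the peak lists by over 1.5 times.

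Directions turned as follows on the log2 scale. DESeq2 gave 0.05 for Ndufab1 (overexpression) and, for the labelled knockdown, -0.24 for Ndufab1, 0.1 for Cox7c and 0.2 for Ndufb8. Limma voom gave 0.07 for Atp5f1 (ELS), 0.01 for Ndufab1 (overexpression), and -0.07 for Cox5b and 0.05 for Cox7c (labelled knockdown). Without libraries under 1 M counts, Ndufv3 was 0.03 (overexpression) and Ndufab1 -0.22 (labelled knockdown). Without Standard GFP replicate 6, Atp5f1 was 0.07 (ELS) and Ndufab1 0.03 (overexpression). Differences of group medians were 0.23 for Atp5f1 (ELS) and, for the labelled knockdown, -0.5 for Ndufab1, 0 for Cox6c2, 0.19 for Cox7c and 0.06 for Ndufb8. Without ELS GFP replicate 2, Cox7c was -0.01 (ELS) and 0.12, and Ndufb8 0.24 (labelled knockdown). Without labelled knockdown replicate 7, Ndufab1 was -0.22. Without all 3, ELS gave -0.14 for Cox7c, -0.07 for Ndufb8 and 0.07 for Atp5f1, overexpression 0.02 for Ndufab1, and the labelled knockdown -0.2 for Ndufab1, 0.08 for Cox7c and 0.19 for Ndufb8. Without the 8 libraries of title number 2, ELS gave -0.18 for Cox7c, -0.18 for Ndufb8 and 0.11 for Atp5f1, overexpression -0.03 for Ndufb4 and 0 for Ndufab1, and the labelled knockdown -0.04 for Ndufab1, 0.11 for Cox7c and 0.08 for Ndufb8. Over the settings that leave out single libraries, the ranges were -0.01 to 2.59 for Cox7c and -0.64 to 0.07 for Atp5f1 (ELS), -2.91 to 0.03 for Ndufab1 (overexpression), and -0.22 to 2.3 for Ndufab1, -2.51 to 0.12 for Cox7c and -1.18 to 0.24 for Ndufb8 (labelled knockdown). The cause was not tested where no library was left out. Depth limits genes of a few CPM: in Standard GFP replicate 4, with 0.314 M counts, 1 read is 2.07 CPM on the scaled library size.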
